A study of Mus musculus with 6 samples.

Results

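The genes described here are the nuclear genes of oxidative phosphorylation, read in mouse retinae that lack the Rb family members Rb1 and p107, with or without Hells. They were taken as every symbol of the count table that begins with Nduf and a letter a, b, c, s or v followed by a number, with Uqcr, with Cox and a number from 4 to 8, or with Atp5, together with Sdha, Sdhb, Sdhc and Sdhd. Of 24062 genes in the table, 84 met this rule and 81 of them had at least 10 counts over all retinae. These were 36 genes of complex I, 4 of complex II, 8 of complex III, 16 of complex IV and 17 of complex V, out of 16904 genes that were tested. Ndufs5, a small accessory subunit of complex I, and the testis isoforms Cox7b2 and Cox8c had 0 counts in all 6 libraries and were not tested. For Ndufs5, absence of the transcript and loss of its reads in the counting cannot be told apart from these counts. A complex is given by the name of the gene, so that Ndufa4, now placed in complex IV, stands with complex I, and Atp5s and Atp5sl, which are not structural subunits of ATP synthase, stand with complex V.

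RNA-seq was performed on 3 Rb1/p107/Hells TKO retinae (Chx10-Cre Rb1 lox/lox p107-/- Hells lox/lox) and 3 Rb1/p107 DKO retinae (Chx10-Cre Rb1 lox/lox p107-/-), all untreated, of strain C57BL/6 by the labels (C57BL/6N by the study's methods) and from postnatal day 21, with 1 library per retina. Every retina lacked p107 (Rbl1) in all cells and carried Chx10-Cre, which is active in retinal progenitors in a mosaic manner, so that each retina also holds cells without recombination. The comparison asked how the additional loss of Hells, a chromatin remodeler of the SNF2 family, changed the transcriptome of the retinoblastoma-prone retina. No retina with intact Rb1 and p107 was in the comparison. The labels give each library a replicate number and an identifier of its own, and do not say whether the retinae came from separate animals. The p-values therefore measure the spread between these 6 libraries.

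Oxidative phosphorylation takes place in the inner mitochondrial membrane. Complexes I and II pass electrons from NADH and succinate to coenzyme Q, complex III passes them on to cytochrome c and complex IV to oxygen, and complexes I, III and IV pump protons whose return through complex V drives the synthesis of ATP. Most subunits are encoded in the nucleus and the others in mitochondrial DNA. Photoreceptors are known for a dense packing of mitochondria in their inner segments and a high demand for ATP.

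To show the regulatory sequence of these genes, promoter windows of 300 bases (250 before the transcription start and 50 after it) were taken from RefSeq on GRCm38.p6. A window was found for 67 of the 81 genes. Capitals mark letters of a searched motif on either strand, namely CGCATGCG of NRF1, CCGGAAG of the ETS factor GABPA, AAGATGGC of YY1, TCAAGGTCA of the estrogen-related receptors, and TTTCGCGC, TTTGGCGC or TTTCCCGC of E2F, the factor that the Rb family restrains. Ndufa4 and Uqcrh are shown because they passed the test below, Sdhd and Cox6a1 because they hold a pair of different motifs, and Cox8a because its window holds an E2F motif beside ETS motifs.

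Ndufa4, chr6:11907401-11907700, minus strand: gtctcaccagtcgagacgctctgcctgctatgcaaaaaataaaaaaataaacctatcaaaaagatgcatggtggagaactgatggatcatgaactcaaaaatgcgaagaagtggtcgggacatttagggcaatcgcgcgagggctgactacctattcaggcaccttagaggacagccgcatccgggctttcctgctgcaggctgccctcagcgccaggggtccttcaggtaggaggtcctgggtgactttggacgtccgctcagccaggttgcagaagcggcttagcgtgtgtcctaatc

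Uqcrh, chr4:116075021-116075320, minus strand: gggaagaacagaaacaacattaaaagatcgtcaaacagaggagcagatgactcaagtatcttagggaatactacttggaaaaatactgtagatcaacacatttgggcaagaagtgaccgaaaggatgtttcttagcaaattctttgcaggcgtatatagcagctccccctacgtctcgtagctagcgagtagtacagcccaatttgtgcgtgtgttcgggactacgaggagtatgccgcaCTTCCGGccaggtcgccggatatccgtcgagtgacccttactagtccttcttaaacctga

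Sdhd, chr9:50603800-50604099, minus strand: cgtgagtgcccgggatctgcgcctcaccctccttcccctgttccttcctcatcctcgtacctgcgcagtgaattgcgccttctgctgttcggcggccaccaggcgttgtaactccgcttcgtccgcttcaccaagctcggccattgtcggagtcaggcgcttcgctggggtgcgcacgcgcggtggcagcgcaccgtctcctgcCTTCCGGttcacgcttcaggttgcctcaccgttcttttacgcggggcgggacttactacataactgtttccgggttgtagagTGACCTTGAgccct

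Cox6a1, chr5:115348909-115349208, minus strand: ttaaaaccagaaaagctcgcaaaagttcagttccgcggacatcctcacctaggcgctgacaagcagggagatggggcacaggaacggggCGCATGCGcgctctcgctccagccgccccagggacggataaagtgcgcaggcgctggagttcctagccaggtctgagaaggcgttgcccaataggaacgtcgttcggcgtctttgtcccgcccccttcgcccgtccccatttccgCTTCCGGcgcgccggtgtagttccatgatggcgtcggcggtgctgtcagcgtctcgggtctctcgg

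Cox8a, chr19:7217567-7217866, minus strand: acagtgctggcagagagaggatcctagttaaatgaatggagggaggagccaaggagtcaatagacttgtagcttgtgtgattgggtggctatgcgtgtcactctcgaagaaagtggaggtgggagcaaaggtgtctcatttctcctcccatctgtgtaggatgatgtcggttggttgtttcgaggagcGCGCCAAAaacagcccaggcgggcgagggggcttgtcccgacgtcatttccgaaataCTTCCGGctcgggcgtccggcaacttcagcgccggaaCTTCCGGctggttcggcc

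None of these motifs was found in the Ndufa4 window. The Uqcrh window had an ETS motif, the Sdhd window an ETS and an estrogen-related receptor motif, and the Cox6a1 window an NRF1 and an ETS motif. Over the 67 genes, 9 (13.4%) had the NRF1 letters, against 2.1% of all 27025 genes with a window and 2.8% of the 17492 protein-coding ones. The YY1 letters were found in 11 genes (16.4%), against 3.2% of all genes and 3.6% of the protein-coding ones. The ETS letters were found in 16 genes (23.9%), against 9.9% and 12.9%. The estrogen-related receptor letters were found in Atp5g3 and Sdhd, which is 3.0% of the genes against 0.5% and 0.4%. An E2F motif was found in 2 genes, Cox5a and Cox8a. This is 3.0% against 2.1% of all genes and 2.8% of the protein-coding ones, and so near the latter share. These shares describe letters in a window, and no factor was measured there. The median log2 fold change of TKO over DKO was 0.12 for the 9 genes with NRF1 letters and 0.12 for the 16 with ETS letters. It was 0.10 for the 11 with the YY1 letters and 0.16 for the 35 genes in which none of these motifs was found. For the 2 genes with estrogen-related receptor letters it was 0.01, and for the 2 with an E2F motif 0.05.

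The libraries held 10343907 to 14203098 counts. Hells, the gene deleted in the TKO, had 60.8, 68.4 and 83.4 normalized counts in the TKO retinae and 678, 523 and 395 in the DKO retinae, a log2 fold change of -2.91 (SE 0.22, adjusted p = 0.00359). The groups did not overlap. The study's allele targets exon 12 of Hells, which counts per gene do not resolve, so this fall does not measure the deletion itself. Markers of dividing cells fell in the same retinae, with a median log2 fold change of -2.65, and their part in the fall of Hells was not tested. Rb1, whose deleted exons are not resolved by counts per gene, had a log2 fold change of 0.34 (SE 0.09, adjusted p = 0.0388). Rb1 did not pass without TKO replicate 2 (adjusted p = 0.122) or with the total count as library size (0.18, adjusted p = 0.176). Nor did it pass without TKO replicate 1 or without any 1 of the DKO replicates (adjusted p from 0.0747 to 0.129). Rbl1 stayed between 13.5 and 27.5 normalized counts in every retina (adjusted p = 0.839). Normalized counts are counts divided by the library size after TMM scaling. Photoreceptor genes were abundant in every library, with Gnat1, the transducin alpha subunit of rods, at 81442 or more normalized counts in each TKO and at 26618 or more in each DKO library. One TKO library stood apart. TKO replicate 2 held 317 CPM (counts scaled to a library total of 1000000) of 12 skeletal muscle markers, against 10.8 to 13.9 in the 5 other libraries, and 296 CPM of 11 lens markers, against 51.7 and 52.5 in the other TKO libraries and at most 14.6 in the DKO libraries. Results that rest on it are therefore given with and without it.

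In the absence of Hells, the nuclear oxidative phosphorylation genes stayed close to their level in the Rb1/p107 DKO. The study called a gene when its adjusted p reached 0.05, its change was 2-fold or more and its mean count after normalization was 10 or more. By these criteria 0 of 81 genes were called, against 6.35% of all genes tested (1074 of 16904). At an adjusted p of at most 0.05 without a minimum fold change, 4 genes rose in the TKO (4 of 81) against 7.35% of all genes, and 0 fell against 9.20% of all genes. In either direction this is 4 genes against 16.6% of all genes. In edgeR, 17 of the 81 genes had an unadjusted p under 0.05, against 33.1% of all genes. DESeq2 called 6 genes at the same adjusted p, against 20.5% of the 15894 genes to which it gave one, and 0 by the criteria of the study. The 4 genes, among them Ndufb8 and Ndufa4 of the complex I group and Uqcrh of complex III, did not pass when TKO replicate 1, TKO replicate 2, DKO replicate 1 or DKO replicate 2 was left out. In each of these fits 0 of the 81 genes passed, against 7.80%, 4.25%, 4.87% and 3.88% of all genes. Without TKO replicate 3, 9 genes passed against 21.4% of all genes, and without DKO replicate 3, 6 passed against 19.2%, where Uqcrh was lost (adjusted p = 0.0586). With the total count as library size, 0 of the 81 genes passed against 20.0% of all genes.

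The intervals show how large a change was compatible with these libraries. For 77 of the 81 genes the 95% confidence interval of the log2 fold change lay within 2-fold in both directions, against 66.4% of all genes tested. For 69 of the 81 genes it lay within 1.5-fold, against 46.5%. Most members are abundant, so genes above a minimum count are a closer comparison, though they were not matched to the members in level. Among genes with a mean normalized count of at least 200, the intervals of all 75 members lay within 2-fold, against 8756 of 9832 genes. Within 1.5-fold lay those of 68 of the 75 members, against 6971 of the 9832 genes. These intervals take the spread between the libraries into account and not the choice of scaling. The 4 genes with wider intervals were Ndufa4l2, Cox6a2, Cox7a1 and Cox8b, all with few counts.

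Small differences of the other genes lay mostly on the same side. The median log2 fold change over the 81 genes was 0.14, against -0.01 over all genes tested, with 69 genes above 0 and 12 below. This direction depended on the scaling. With the total count of a library as its size, in place of TMM, the median of the 81 genes was -0.02 with 33 genes above 0, and that of all genes tested moved to -0.17. Relative to all genes the median of the members was 0.15 in both fits. The retinae of both groups did not overlap for 19 genes, all higher in the TKO, against 18.0% of all genes tested (20.6% were lower, and 38.6% did not overlap in either direction). For 64 of the 81 genes the lowest normalized count of all retinae was in DKO replicate 1, and for 47 genes the highest was in TKO replicate 2. This order of the libraries also depended on the scaling. In CPM of the library total, the lowest value was in DKO replicate 1 for 38 genes and in TKO replicate 1 for 28. The highest CPM was in DKO replicate 2 for 25 genes, in DKO replicate 3 for 20 and in TKO replicate 2 for 18. With TMM scaling, the median log2 fold change was 0.09 without TKO replicate 2 and 0.10 without DKO replicate 1.

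**Figure D1:**
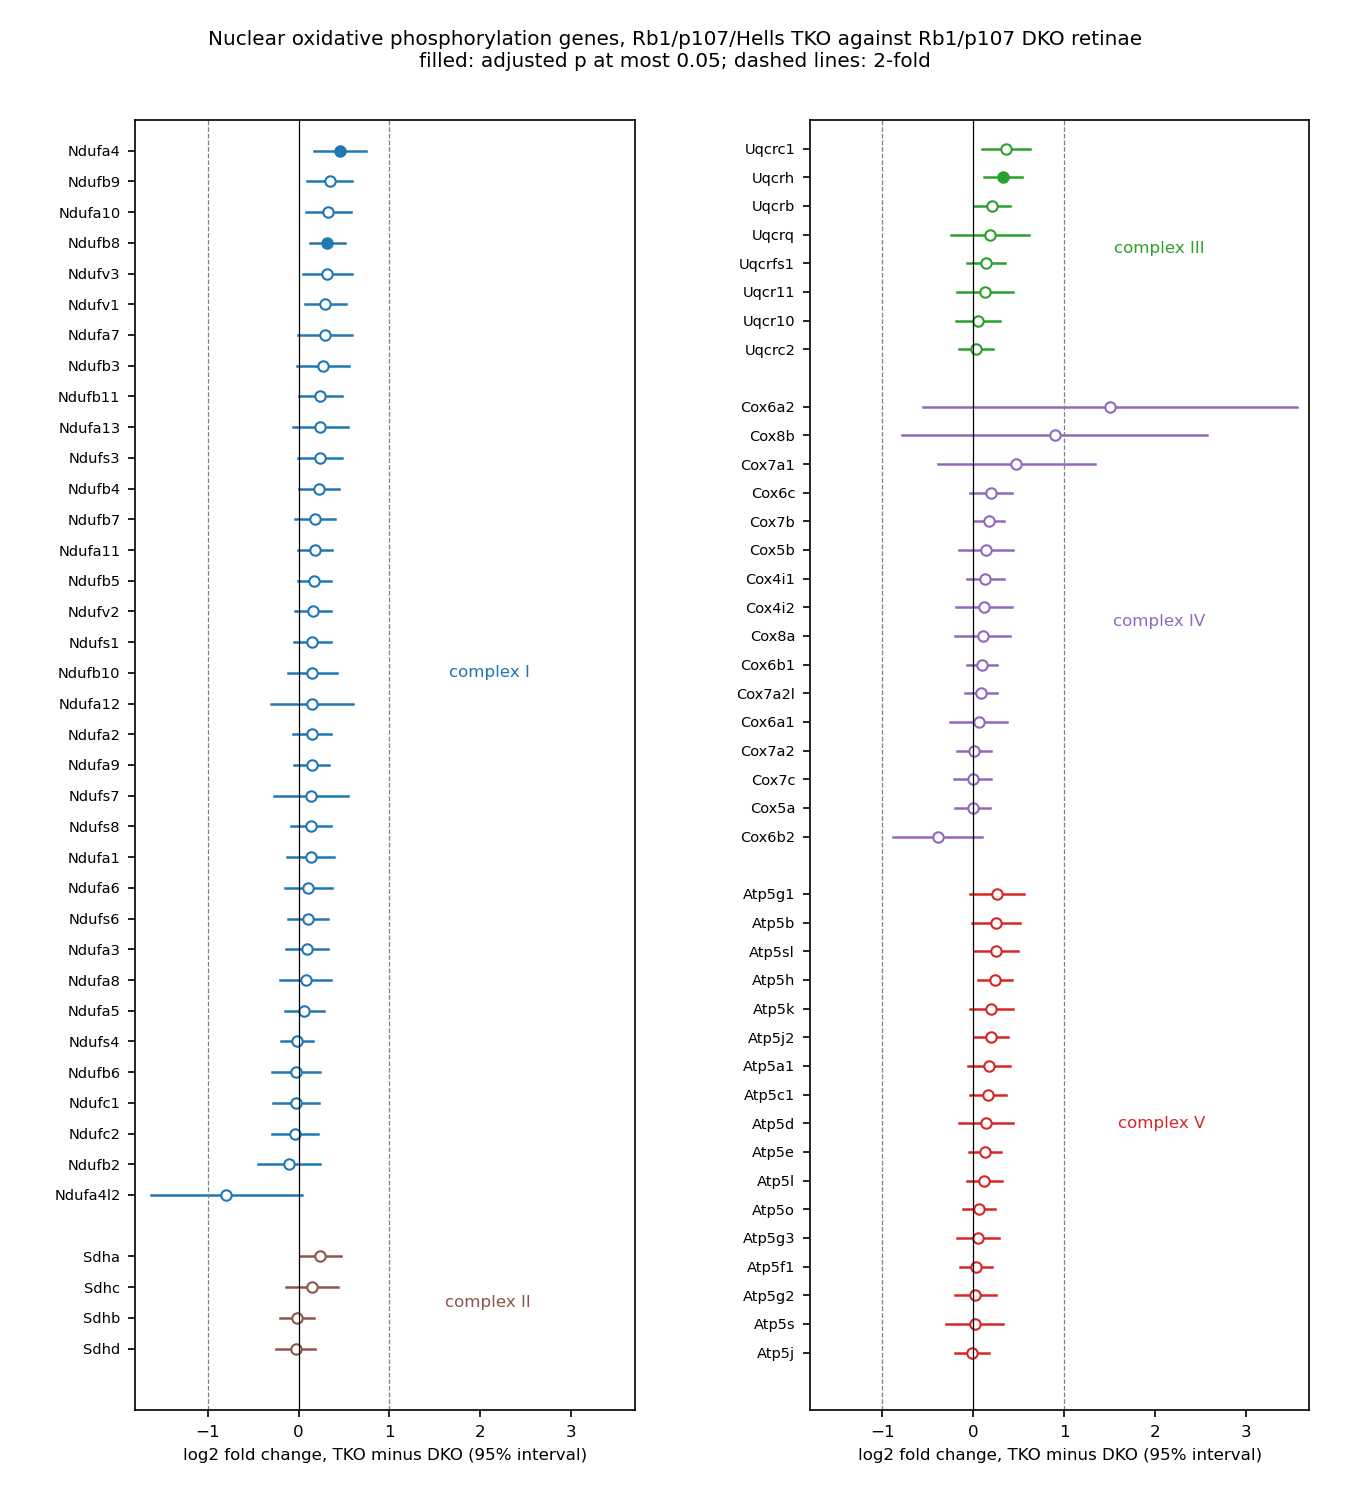
Log2 fold change of TKO minus DKO with its 95% confidence interval for 80 of the 81 genes, ordered within complexes (3 retinae per group). Filled points mark Ndufa4, Ndufb8 and Uqcrh, with an adjusted p of at most 0.05, dashed lines mark a 2-fold change, and the widest intervals belong to Cox6a2, Cox8b, Ndufa4l2 and Cox7a1.

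The level of the whole pathway was summed in each retina. Of each library total, the 81 genes held 8600, 9075 and 8494 CPM in the TKO retinae and 7980, 8960 and 8826 in the DKO retinae, 8723 ± 309 against 8589 ± 531 (SD, n = 3 each). The groups overlapped, and the ratio of the means was 1.02. When scaled to the TMM library size, the sums were 9421, 9732 and 8524 in the TKO and 7502, 8344 and 8557 in the DKO, a ratio of 1.13, and TKO replicate 3 still lay below DKO replicate 3. The 20 genes with the largest counts, among them Gnat1, held 5.72% to 8.43% of all counts in the TKO libraries and 3.48% to 4.67% in the DKO libraries. With these 20 genes left out of the library total the ratio was 1.05.

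Markers of some cell types moved with the genotype, most of all those of rods and dividing cells. Of the other retinal lists, 6 of 9 microglia markers were called lower, and 2 of 10 cone and 1 of 8 Muller glia markers higher. No bipolar, amacrine, horizontal, ganglion or endothelial marker was called. Of all genes tested, 6.35% were called in either direction. The 13 rod markers held 59055, 51876 and 31995 CPM in the TKO retinae and 12038, 11857 and 21599 in the DKO retinae, a ratio of 3.14. All 13 of 13 were called higher, with a median log2 fold change of 1.78. The 12 markers of dividing cells held 49.3, 86.4 and 199.5 CPM in the TKO and 1106, 852 and 509 in the DKO, and all 12 of 12 were called lower, with a median log2 fold change of -2.65. The part of these cell types in the small differences of the oxidative phosphorylation genes was not tested. In whole retinae, fewer cells of a type and less RNA per cell cannot be told apart. In both groups the retina nearest to the other genotype by the rod and dividing-cell markers was replicate 3.

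**Figure D2:**
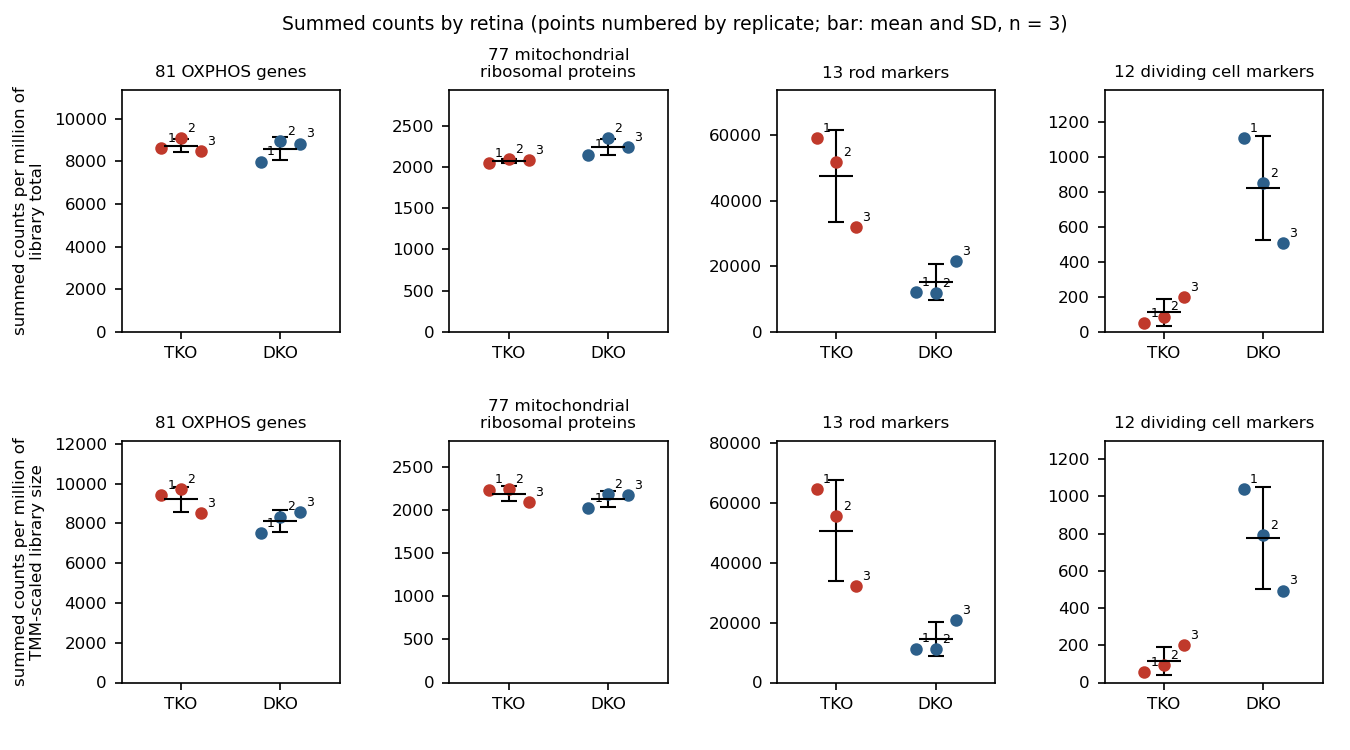
Summed counts per 1000000 of the library total (upper row) and of the TMM-scaled library size (lower row) in each retina, for the 81 oxidative phosphorylation (OXPHOS) genes, 77 mitochondrial ribosomal proteins, 13 rod markers and 12 markers of dividing cells. The 81 genes lay between 7980 and 9075 in the upper row, while rod markers lay between 11857 and 59055 and those of dividing cells between 49.3 and 1106.

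The levels of the members spanned a wide range. Per kilobase of transcript, the median over the 81 genes was 1051 normalized counts in the DKO and 1197 in the TKO. The most abundant transcript per length was Atp5b, the catalytic beta subunit of ATP synthase, with 7306 ± 620 normalized counts per kilobase in the DKO and 8693 ± 793 in the TKO (SD, n = 3 each). Cox4i1, a regulatory subunit of complex IV, followed with 4106 ± 313 and 4498 ± 213, and Atp5a1, the alpha subunit of ATP synthase, with 3873 ± 234 and 4363 ± 295, so that Cox4i1 and Atp5a1 did not differ beyond their spread within a genotype. Ndufa4 was the fifth in the DKO, with 2896 ± 267, and the fourth in the TKO, with 3978 ± 591. By complex, the median per kilobase in the DKO was 734 for complex I, 757 for complex II, 1331 for complex III, 1293 for complex IV and 1737 for complex V. The median in the TKO was 856, 743, 1524, 1319 and 1931 in the same order. Below 100 normalized counts per kilobase lay Cox6a2, Cox8b, Ndufa4l2, Cox7a1 and Atp5s. These values rest on the length of 1 annotated transcript per gene.

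**Figure D3:**
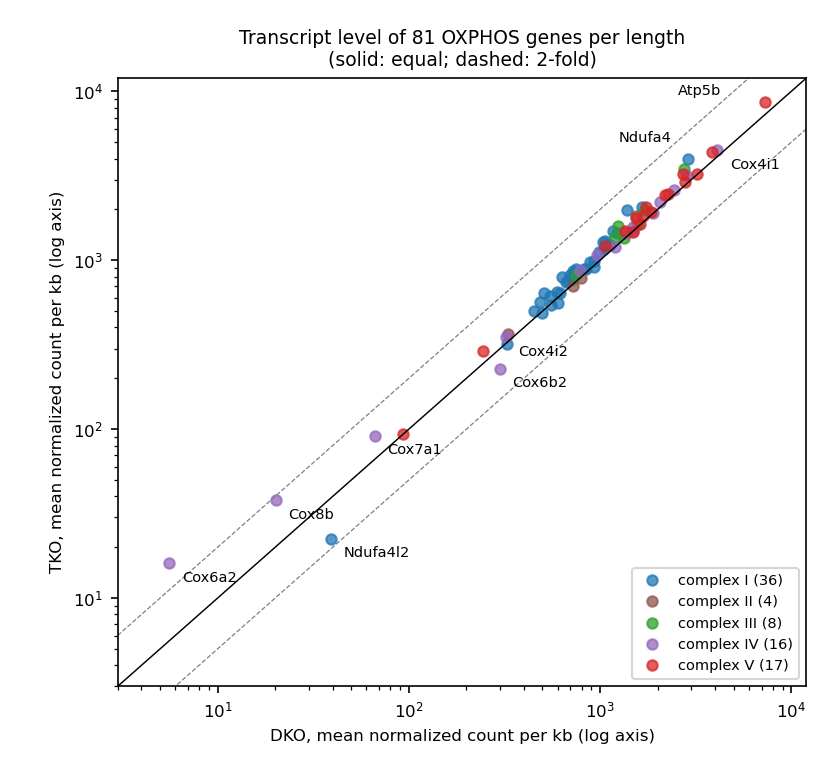
Mean normalized count per kilobase of transcript in the DKO (x axis) and the TKO (y axis) for the 81 genes, both on log axes, coloured by complex. The solid line marks equal levels and the dashed lines 2-fold, and only the low genes Cox6a2, Cox8b and Ndufa4l2 come near or pass the dashed lines.

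Complex I takes electrons from NADH through nuclear core subunits that hold its flavin and iron-sulfur clusters, and a large set of accessory subunits surrounds them. Over its 36 genes the median log2 fold change was 0.15, with 30 above 0, and 3 rose while 0 fell, against 7.35% and 9.20% of all genes tested. Ndufv1, the flavoprotein that accepts the electrons of NADH, had 2339, 2149 and 1968 normalized counts in the TKO against 1588, 1763 and 1915 in the DKO (log2 fold change 0.29, adjusted p = 0.0787). Its groups did not overlap, yet the change did not pass. The core subunits Ndufs1, Ndufs3, Ndufs7, Ndufs8 and Ndufv2 had log2 fold changes from 0.13 to 0.23 and adjusted p-values of 0.161 or more.

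Among the accessory subunits, Ndufb8 (chromosome 19, 44548572-44555440, minus strand), whose protein is often used as a marker of assembled complex I, had 1446, 1459 and 1293 normalized counts in the TKO and 1043, 1146 and 1179 in the DKO. The groups did not overlap, with a log2 fold change of 0.32 (SE 0.08, adjusted p = 0.038). Of its exons, 19.7% overlap the gene model Gm20538 on the same strand, so its count is less certain. Ndufa4 (chromosome 6, 11900292-11907497, minus strand), the protein now assigned to complex IV, had 2558, 2703 and 2019 normalized counts in the TKO and 1596, 1783 and 1921 in the DKO. The groups did not overlap, and the log2 fold change was 0.46 (SE 0.12, adjusted p = 0.0394). Without TKO replicate 2 the log2 fold change was 0.29 for Ndufb8 and 0.37 for Ndufa4, with adjusted p-values of 0.134 and 0.138, and with the total count as library size it was 0.16 and 0.30, with adjusted p-values of 0.181 and 0.0815. Ndufb9 and Ndufa10 came next, with log2 fold changes of 0.34 and 0.33 and adjusted p-values of 0.0628 and 0.0732. They did not overlap between the groups, and Ndufb9 shares 28.6% of its exons with another gene model on the same strand.

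On the other side of 0 lay 6 genes of the complex I group, and none passed. Ndufa4l2, the hypoxia-induced paralog of Ndufa4, had the lowest log2 fold change of all members with -0.80 (SE 0.36, adjusted p = 0.165). The other 5, Ndufb2, Ndufc2, Ndufc1, Ndufb6 and Ndufs4, had log2 fold changes between -0.11 and -0.02. For Ndufs4, an accessory subunit whose loss causes a mitochondrial encephalopathy in mice, the retinae held 828, 877 and 780 normalized counts in the TKO and 831, 826 and 863 in the DKO. This interval, -0.20 to 0.16, was the narrowest among the 6.

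Complex II, which is also the succinate dehydrogenase of the citric acid cycle, has 4 subunits and all of them are nuclear. Sdha, the flavoprotein, had 5491, 5594 and 4844 normalized counts in the TKO and 4141, 4598 and 4746 in the DKO. These did not overlap, but with a log2 fold change of 0.24 (SE 0.10) the adjusted p was 0.129. Sdhb, the iron-sulfur subunit, and the membrane anchors Sdhc and Sdhd had log2 fold changes of -0.02, 0.15 and -0.03, and their retinae overlapped (adjusted p of 0.89, 0.44 and 0.839). All 4 intervals lay within 1.5-fold.

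Complex III passes electrons from coenzyme Q to cytochrome c. Its 8 genes all had a log2 fold change above 0, with a median of 0.16, and 1 rose, against 7.35% of all genes tested. Uqcrh (chromosome 4, 116066965-116075071, minus strand), the hinge protein at the docking site of cytochrome c1, had 2076, 1904 and 1696 normalized counts in the TKO and 1445, 1526 and 1561 in the DKO. The groups did not overlap, with a log2 fold change of 0.32 (SE 0.09, adjusted p = 0.0449). Without TKO replicate 2 it was 0.32 again, with an adjusted p of 0.131, and with the total count as library size it was 0.16 (adjusted p = 0.171). Uqcrc1 had a larger log2 fold change of 0.36 with a wider spread, at 2744, 2883 and 2278 normalized counts in the TKO and 1843, 2018 and 2295 in the DKO. TKO replicate 3 lay below DKO replicate 3, and the adjusted p was 0.07. Uqcrc2, the partner core protein, had a log2 fold change of 0.03 and an interval from -0.16 to 0.22.

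Complex IV, cytochrome c oxidase, hands the electrons to oxygen. Its 3 catalytic subunits are mitochondrial, and the nuclear subunits around them exist in part as tissue-specific isoforms. Over 16 genes the median log2 fold change was 0.11, and none passed, against 16.6% of all genes tested in either direction. Cox4i1 had 3338, 3516 and 3199 normalized counts in the TKO and 2817, 3077 and 3283 in the DKO (log2 fold change 0.13, adjusted p = 0.332). Cox6b1, which joins the monomers of the complex, had 1647, 1623 and 1543 against 1442, 1550 and 1505 (0.10, adjusted p = 0.378), and Cox7a2l, a factor of respiratory supercomplexes, had a log2 fold change of 0.08 with an interval from -0.09 to 0.26. The retinae of both genotypes overlapped for these 3 genes. Cox7b was the only gene of complex IV whose groups did not overlap, at a log2 fold change of 0.17 (adjusted p = 0.144).

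Complex V is the ATP synthase. Its F1 head holds 3 alpha and 3 beta subunits, its rotor a ring of c subunits, and a peripheral stalk keeps the head in place. Over 17 genes the median log2 fold change was 0.14 and none passed, against 16.6% of all genes tested in either direction. Atp5b had 17431, 17632 and 14907 normalized counts in the TKO and 12641, 14516 and 14840 in the DKO. The groups did not overlap, though TKO replicate 3 and DKO replicate 3 were nearly equal, and the log2 fold change was 0.25 (SE 0.12, adjusted p = 0.17). The 5 subunits of F1 were all above 0, with a median of 0.16, and the smallest adjusted p among them was 0.17. Atp5h, the d subunit of the peripheral stalk, had the smallest adjusted p of complex V, at a log2 fold change of 0.24 (adjusted p = 0.0755). The 4 stalk subunits had a median log2 fold change of 0.04. All 17 intervals of complex V lay within 1.5-fold.

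Isoforms of the same subunit were compared by their share per kilobase of transcript within a set of paralogs. Cox6a2, Cox7a1 and Cox8b are the forms of heart and skeletal muscle. Cox6a2 had 1, 22 and 7 counts in the TKO and 1, 6 and 6 in the DKO, which is 0.139%, 2.05% and 0.843% of Cox6a in the TKO and 0.117%, 0.551% and 0.482% in the DKO. Cox7a1 had 22, 53 and 22 counts against 23, 26 and 39, and Cox8b had 6, 23 and 8 against 1, 14 and 10. The highest count of Cox6a2, Cox7a1 and Cox8b was in TKO replicate 2, the library with the skeletal muscle markers. Their log2 fold changes of 1.51, 0.47 and 0.90 had standard errors of 0.90, 0.38 and 0.73 and did not pass (adjusted p of 0.276, 0.419 and 0.431). Without TKO replicate 2 the log2 fold change was 0.31 for Cox6a2, 0.0022 for Cox7a1 and 0.17 for Cox8b. The ubiquitous partners Cox6a1, Cox7a2 and Cox8a had log2 fold changes of 0.06, 0.01 and 0.10.

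Cox4i2, the isoform of lung and of oxygen-sensing cells, made up 7.21% ± 0.41 of Cox4 in the TKO and 7.23% ± 0.54 in the DKO (SD, n = 3 each), so that the shares differed by less than their spread. Cox6b2, the testis isoform, made up 6.49%, 8.52% and 9.30% of Cox6b in the TKO and 12.9%, 11.6% and 8.45% in the DKO. The groups overlapped, and the log2 fold change of -0.39 did not pass (adjusted p = 0.239). Ndufa4l2 made up 0.495%, 0.632% and 0.553% of the pair with Ndufa4 in the TKO and 1.37%, 0.858% and 1.76% in the DKO. Each DKO share was above each TKO share, while the counts behind them were only 17, 25 and 14 in the TKO and 36, 27 and 61 in the DKO. The c subunit is made from 3 genes that encode the same mature protein. Atp5g1 held 25.3% ± 1.8 of it in the TKO and 22.4% ± 1.1 in the DKO, Atp5g2 39.5% ± 1.8 and 41.5% ± 1.2, and Atp5g3 35.2% ± 0.7 and 36.1% ± 1.2. None of the 3 genes passed, with log2 fold changes of 0.26, 0.02 and 0.05. With the longest annotated transcript of each gene the mean share of Atp5g1 fell to 4.82%, so the shares between c subunit genes depend on the transcript chosen, and reads of Atp5g2 could be split with near-identical copies.

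**Figure D4:**
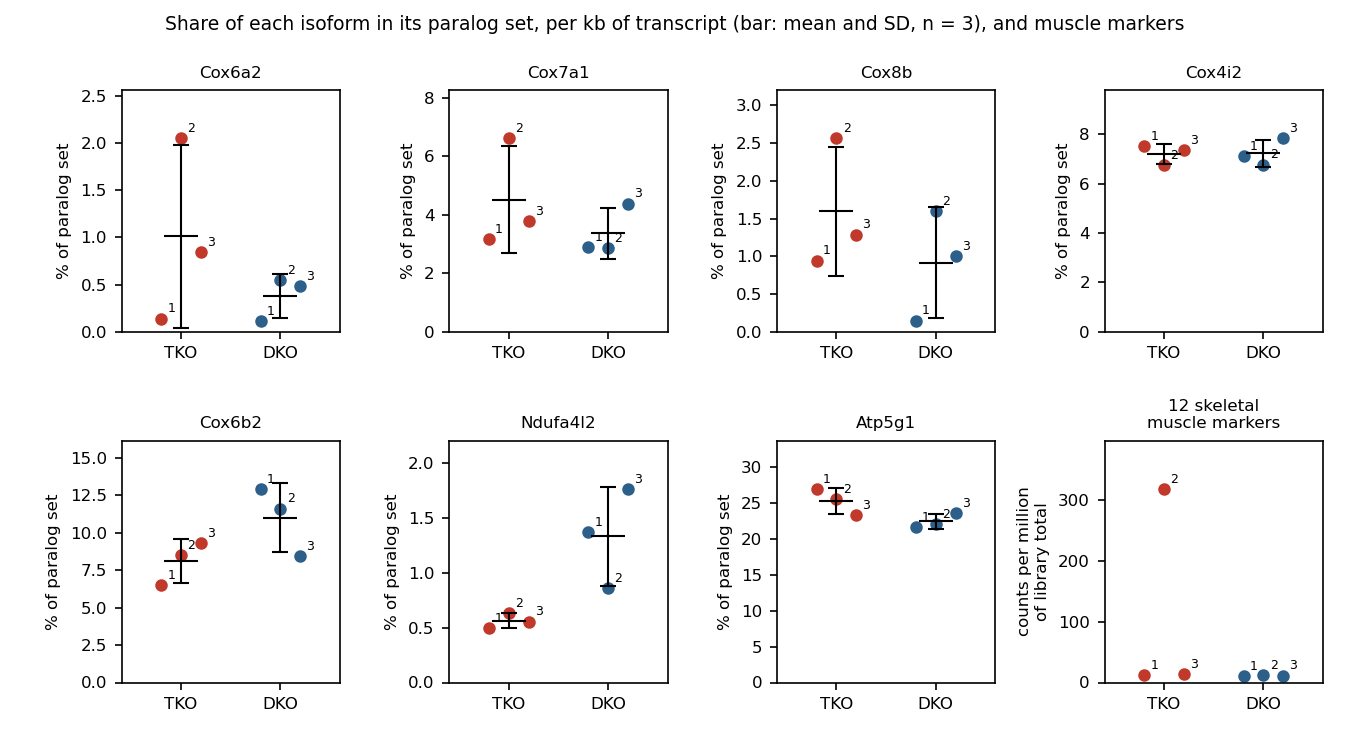
Share of the tissue-restricted isoform, or of Atp5g1 among the c subunit genes, in its paralog set in each retina, as a percent per kilobase of transcript, and the summed level of 12 skeletal muscle markers in CPM. Points are numbered by replicate and bars give the mean and SD of 3 retinae, with TKO replicate 2 highest for Cox6a2, Cox7a1, Cox8b and the muscle markers.

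Other genes of mitochondrial respiration were read from lists. Of 41 assembly factors tested, 2 rose and 0 fell, against 7.35% and 9.20% of all genes tested, with a median log2 fold change of 0.12. These were Ecsit, an assembly factor of complex I, which had a log2 fold change of 0.46 (SE 0.10, adjusted p = 0.0221) and Ndufaf5, a methyltransferase-like factor that modifies Ndufs7, with 0.45 (SE 0.12, adjusted p = 0.0349). Neither passed when TKO replicate 1, TKO replicate 2, DKO replicate 1 or DKO replicate 2 was left out (adjusted p from 0.0694 to 0.134). With the total count as library size neither passed, at 0.30 for Ecsit (adjusted p = 0.0645) and 0.30 for Ndufaf5 (adjusted p = 0.0905). Of 13 genes for cytochrome c and coenzyme Q, none passed, and Cyc1, the cytochrome c1 of complex III, which the naming rule leaves out of the 81 genes, had a log2 fold change of 0.16 (adjusted p = 0.258). None of 77 mitochondrial ribosomal proteins passed either. Their median log2 fold change was 0.04 and 45 were above 0, and their most abundant member Mrps25 had a log2 fold change of -0.0026 (adjusted p = 0.985). Unadjusted p-values under 0.05 were found for 7 of the 77 and for 1 of the 13, against 33.1% of all genes tested. At the adjusted p, 16.6% of all genes tested passed in either direction. None of the 13 subunits encoded in mitochondrial DNA was in the table, so that both genomes could not be compared.

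The citric acid cycle, which delivers NADH and succinate, had 18 genes tested, of which 0 rose and 2 fell, against 7.35% and 9.20% of all genes tested. The share that fell was near that of all genes. Idh2, the mitochondrial NADP-dependent isocitrate dehydrogenase, had 468, 459 and 627 normalized counts in the TKO and 884, 938 and 708 in the DKO, a log2 fold change of -0.70 (SE 0.15, adjusted p = 0.0186). Suclg2, the GTP-forming subunit of succinyl-CoA synthetase, had 111, 163 and 187 against 284, 276 and 205, a log2 fold change of -0.73 (SE 0.21, adjusted p = 0.0494). In both genes every TKO retina was below every DKO retina, but without TKO replicate 1, TKO replicate 2, DKO replicate 1 or DKO replicate 2 they did not pass (adjusted p from 0.0651 to 0.16). The other 16 genes of the cycle did not pass, and the median of the list was 0.14.

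The regulators of mitochondrial biogenesis included changes of more than 2-fold. Of 17 tested, 4 rose and 0 fell, against 7.35% and 9.20% of all genes tested, and 3 were called higher by the criteria of the study, against 1.97% of all genes. Esrrb, a nuclear receptor that is expressed in rods, had 5388, 4970 and 2648 normalized counts in the TKO and 778, 799 and 1237 in the DKO, a log2 fold change of 2.21 (SE 0.29, adjusted p = 0.00677). Ppargc1b, a coactivator of such receptors, had 952, 833 and 625 against 248, 250 and 427, a log2 fold change of 1.38 (SE 0.24, adjusted p = 0.00991). The other 2 of the 4, named here because so few passed, were Polg2, the accessory subunit of the mitochondrial DNA polymerase, with a log2 fold change of 1.27, and Ppargc1a with 0.61. In these 4 genes every TKO retina lay above every DKO retina. The median over the 17 regulators was 0.11, since most members were near 0. Among 19 import and carrier genes 1 rose, against 7.35% of all genes. This was Ckmt1, the mitochondrial creatine kinase of the brain and photoreceptors, with a log2 fold change of 0.94 (SE 0.14, adjusted p = 0.00752). Esrrb, Ppargc1b and Ckmt1 passed with each retina left out in turn. Polg2 and Ppargc1a were not read out from these fits, so how far they depend on a single retina is not known. Rod markers rose in the same retinae, and their part in the change of Esrrb, Ppargc1b and Ckmt1 was not tested.

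**Figure D5:**
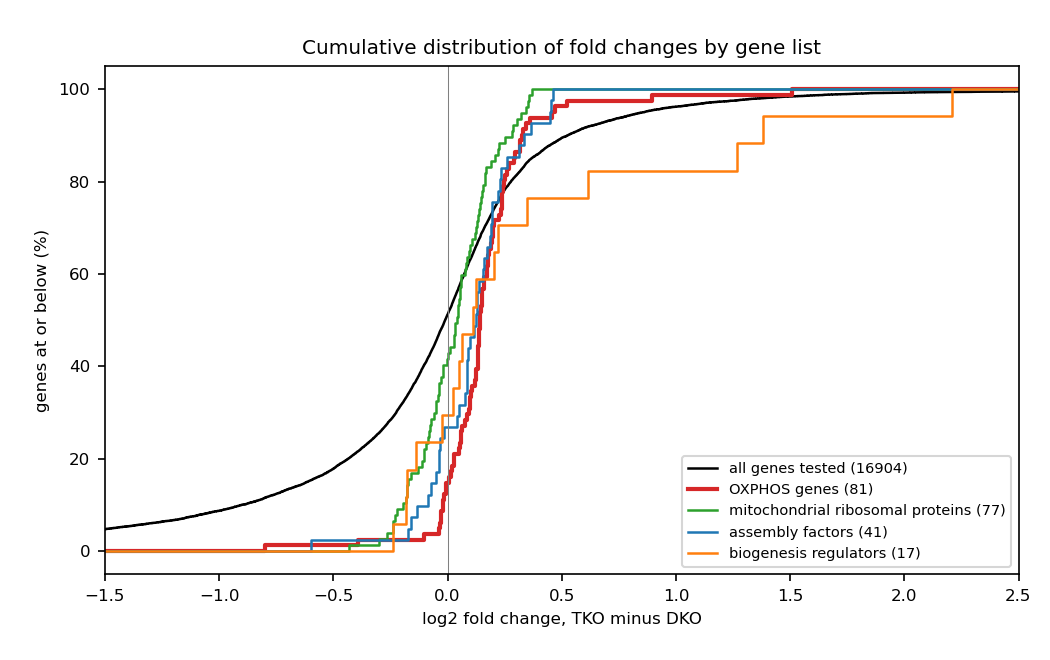
Cumulative share of genes (y axis, percent) at or below a log2 fold change of TKO minus DKO (x axis) for all 16904 genes tested, the 81 oxidative phosphorylation (OXPHOS) genes, 77 mitochondrial ribosomal proteins, 41 assembly factors and 17 biogenesis regulators. The curve of the 81 genes is steep, with 77 of them within 0.5 of 0 and a median of 0.14, while that of all genes is wider and 4 regulators form a step to the right.

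Abundant members varied between replicates about as much as all genes above the same minimum count. These genes were not matched to the members in level. Of the 81 genes, 77 had an absolute log2 fold change under 0.5. Among genes with a mean normalized count of at least 200, the median coefficient of variation between replicates was 8.19% for 75 members and 8.34% for all 9832 genes. The median absolute log2 fold change was 0.14 for these members and 0.18 for all genes with that minimum count.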

How the data were processed

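RNA-seq of 3 TKO and 3 DKO retinae was analysed, with groups from the sample labels. The deposited values are raw counts per gene symbol. The paper's methods describe TruSeq Stranded libraries, STAR alignment to GRCm38, multiple alignments allowed, and HTSeq counting, whereas the submitters' processing notes name TopHat2, featureCounts and DESeq2 with mm10/GRCm38. The strand setting was not given in the sources used here, so 15 members with over 10% of their exons under a gene on the opposite strand are less certain, as are 4 with same-strand overlap and Atp5g2, which has near-identical copies.

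Genes with a sum under 10 were removed. edgeR 4.0.16 (R 4.3.3, TMM, quasi-likelihood F test) was fitted on 16904 genes with Benjamini-Hochberg adjustment and was tested on simulated data. The mean of at least 10 used DESeq2 size factors. Coordinates and transcript lengths came from GENCODE M21 (GRCm38), taking the shortest principal transcript with the best support. All 84 symbols matched, 1 by synonym. Copies were searched with BLAST 2.17.0 (95% identity, 80% coverage). Named were the 3 most abundant members of each complex (all 4 of complex II), 8 members per direction with the smallest adjusted p, paralogs, core, F1 and c ring subunits, and the 2 strongest of each other list; some genes that this rule names are not reported here. Promoters were shown for a few members picked, for the reasons given with them, among those named for abundance or as paralogs. They do not represent the members as a whole. Replicate numbers did not pair the retinae. The members and lists were chosen with earlier results of these data known. Alternatives were DESeq2 1.42.0, other scalings, filters, dispersions and thresholds, a replicate block and leaving out each retina.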

Additional observations from a re-analysis of the deposited data

How the results depend on the processing

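No gene of the 81 met the criteria of the study under any alternative run, including an adjusted p of at most 0.01, a minimum fold change of 1.5 and DESeq2. The 4 genes with an adjusted p of at most 0.05 depended on the processing: 0 passed with total counts only, 0 with the replicate block, and 0 to 9 with 1 retina left out, and 11 of the 81 passed in at least 1 of the 15 fits. The cause of these losses was not tested, and a fit with 1 retina left out also holds fewer retinae. The median log2 fold change of 0.14 became -0.016 with total counts only and ranged from 0.09 to 0.19 with 1 retina left out. The ratio of the summed counts was 1.13 with the TMM-scaled library size and 0.981 to 1.04 with 1 retina left out, against 1.02. With filterByExpr 79 of the 81 genes were tested. The replicate numbers did not pair the retinae: the deviations of same-numbered retinae correlated at 0.07, -0.04 and -0.18, and the block left 106 of 2799 genes past the adjusted p over all genes. Gnat1 and Mki67 lost their adjusted p of at most 0.05 without TKO replicate 2, DKO replicate 1 or DKO replicate 2 (adjusted p from 0.052 to 0.0719) and with the replicate block, but kept their direction, and Esrrb, Ppargc1b and Ckmt1 lost it with the block alone. Mki67 also lost it with robust dispersion (adjusted p = 0.0698). The named genes gave 805 values counted as the same, 75 weaker, 11 stronger and 17 moved, and none turned to the opposite direction past the threshold. Values counted as the same stayed on their side of the threshold. They kept their direction or, where neither fit passed, crossed 0 by a shift smaller than the standard error. With 3 retinae per group of 10343907 to 14203098 counts, members with few counts, such as Cox6a2 and Ndufa4l2, could change by 2-fold without passing.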
